A study of Mus musculus with 2 samples.

Results

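The proteasome genes described here are the 49 genes measured on the array whose symbol starts with Psma, Psmb, Psmc, Psmd, Psme, Psmf or Psmg followed by a number, of 18193 genes measured in all. They were taken from probe sets that the platform annotation ties to 1 gene symbol, without pseudogenes, and each gene was given the value of its brightest probe set. RNA came from rib chondrocytes, the cells of rib cartilage, taken from mice aged 5 days and released with collagenase. One preparation was wild type and the other carried the V156D mutation of Matn1, the gene of the cartilage matrix protein matrilin-1, as a knock-in. Each genotype was measured on 1 Affymetrix Mouse Genome 430 2 array, and the series' design text speaks of RNA from the pooled cells of 5 littermates. The sources used here do not give zygosity, strain or sex. With 1 array per genotype no replicate error exists and no test was possible, so every difference below is a difference between these 2 arrays, written as mutant over wild type. Higher and lower, here and below, mean in the mutant array.

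The proteasome is the cytosolic and nuclear protease that degrades proteins tagged with ubiquitin. Its barrel, the 20S core, is built of outer alpha rings that gate the entrance and inner beta rings that hold the proteolytic sites. A 19S cap on either end recognises ubiquitin, removes it, and unfolds and threads the protein inward with a ring of ATPases. Dedicated chaperones assemble both parts, and other activators can take the place of the cap. Chondrocytes secrete large amounts of matrix protein, and proteins that misfold in the endoplasmic reticulum are exported to the cytosol and degraded by the proteasome. Cells commonly make the subunits in a coordinated way, among others through the transcription factor NRF1 (gene Nfe2l1), which acts at antioxidant response elements (AREs).

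Sequences before the gene starts were read for letters that match the core of such an element. RefSeq promoters of build GRCm38.p6 were found for 41 of the 49 genes, and the 250 bases before each start were searched on both strands for the ARE core TGACNNNGC. It was found for 5 of the 41 genes, or 12.2%, against 11.5% of all 27025 genes in the promoter table, so the share lay close to the background. The 5 genes belong to different parts of the particle: Psmb5 and Psmb6 hold proteolytic sites, Psmc6 is a cap ATPase, Psmd12 a cap subunit and Psmd9 a cap assembly chaperone. Each is shown as 60 bases on the gene's strand, 5′ to 3′, with the match in capitals, which is the reverse complement of the core in Psmd12 and Psmc6. The windows lie at chr14:54618009-54618068 (minus strand, Psmb5), chr11:70525297-70525356 (plus, Psmb6), chr14:45329574-45329633 (plus, Psmc6), chr11:107479278-107479337 (plus, Psmd12) and chr5:123228130-123228189 (plus, Psmd9).
Psmb5: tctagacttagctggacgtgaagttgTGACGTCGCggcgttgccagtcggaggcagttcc
Psmb6: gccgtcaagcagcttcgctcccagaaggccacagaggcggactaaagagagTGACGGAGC
Psmc6: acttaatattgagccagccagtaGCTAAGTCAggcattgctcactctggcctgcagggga
Psmd12: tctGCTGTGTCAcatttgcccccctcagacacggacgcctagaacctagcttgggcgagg
Psmd9: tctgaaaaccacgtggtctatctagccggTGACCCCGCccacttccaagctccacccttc

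Of the other elements searched in the same windows, CCAAT also lay near its background. It was present in 16 of the 41 promoters, or 39.0%, against 37.5% of all genes. The interferon-stimulated response element, searched as GAAA, any 2 bases and GAAA, was present in 3 (Psmb3, Psmd4 and Psmd9), or 7.32%, against 3.46% of all genes, and the difference rests on these few genes. The element TTCNNNGAA, bound by STAT factors, was present in 2 (Psmb8 and Psmg1), or 4.88%, against 8.13%. The Psmb8 match is shown because Psmb8 is the interferon-inducible counterpart of Psmb5. It lies at chr17:34198072-34198131 on the plus strand of GRCm38.p6.
Psmb8: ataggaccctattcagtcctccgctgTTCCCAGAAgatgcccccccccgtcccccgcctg

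A match is a description of letters and not a shown binding site, and promoters outside the table were not searched.

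The proteasome genes had nearly the same signal in both arrays. The floor below which a signal was not read was the median over probe sets of their mean log2 signal, an intensity of 54.6, and 45 of the 49 genes lay at or above it. Of these 45, 43 differed less than 1.2-fold between the arrays, or 95.6%, against 78.8% of the 11329 genes at or above the floor. Only Psmc4 and Psmg4 were at least 1.2-fold lower (2 of 45, against 13.1% of all genes) and none at least 1.2-fold higher (against 8.15%). Psmc4 was the only gene at least 1.5-fold lower, against 2.02% of all genes, and none was 1.5-fold higher, against 1.70%. No proteasome gene reached 2-fold in either direction, as 0.909% of all genes did.

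Small differences leaned to the lower side. Of the 45 genes 30 had ratios below 0, or 66.7%, against 55.0% of all genes at or above the floor. The median log2 ratio was -0.07, or 1.05-fold lower, against -0.02 for all genes. Proteasome probe sets were bright, and 36 of the genes lay at or above the 80th percentile of signal. At that floor 23 of 36 had ratios below 0, or 63.9%, against 60.7% of the 5449 genes there, and the median was -0.05 against -0.04. The lean also depended on the scaling. With each array centred on its median it was 32 of 45, or 71.1%, against 59.4% of all genes, with medians of -0.09 and -0.04. After quantile normalization 23 of 45 ratios were below 0, or 51.1%, against 48.4% of all genes, and after a loess correction for signal 24 of 45, or 53.3%, against 49.0%.

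**Figure D1:**
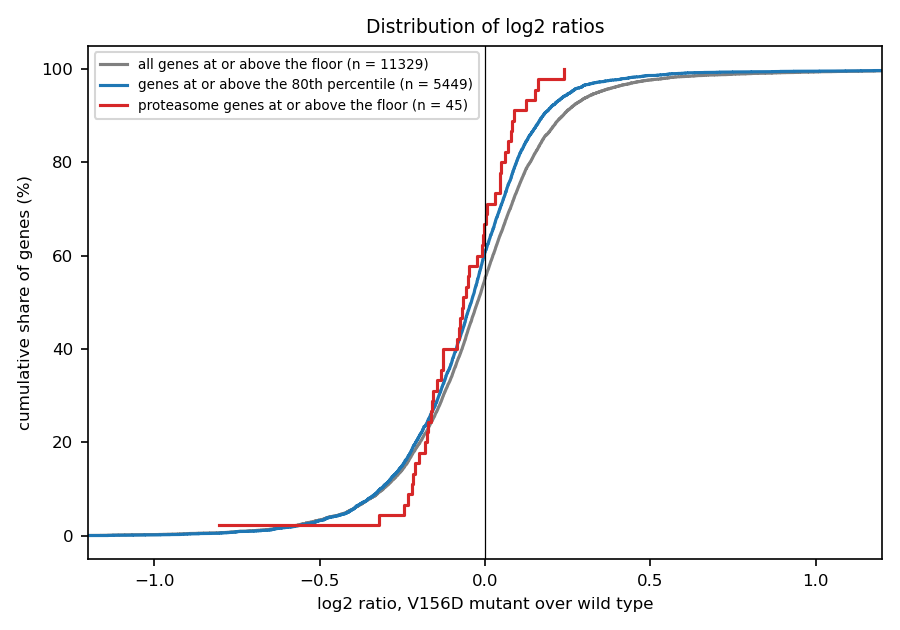
Cumulative share of genes (percent, vertical axis) by log2 ratio of mutant over wild type (horizontal axis) for the 45 proteasome genes, all 11329 genes at or above the floor and the 5449 brightest genes. The SD of the ratios is 0.17, 0.27 and 0.24 in that order; the proteasome curve crosses 0 at 66.7%, and has 1 gene, Psmc4, far to the left.

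Probe sets of the same gene gave a measure of error within these arrays. Of the 49 genes, 20 had 2 or more probe sets reaching the floor, and in 9 of the 20 these had 1 sign, 6 lower and 3 higher. Among all genes with at least 2 such probe sets 52.5% had probe sets of 1 sign. The SD of the log2 ratio over the probe sets of a gene had a median of 0.15 for the 20 proteasome genes and 0.13 for all such genes. Most single ratios below are therefore smaller than the disagreement between probe sets, which says nothing of error between animals.

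**Figure D2:**
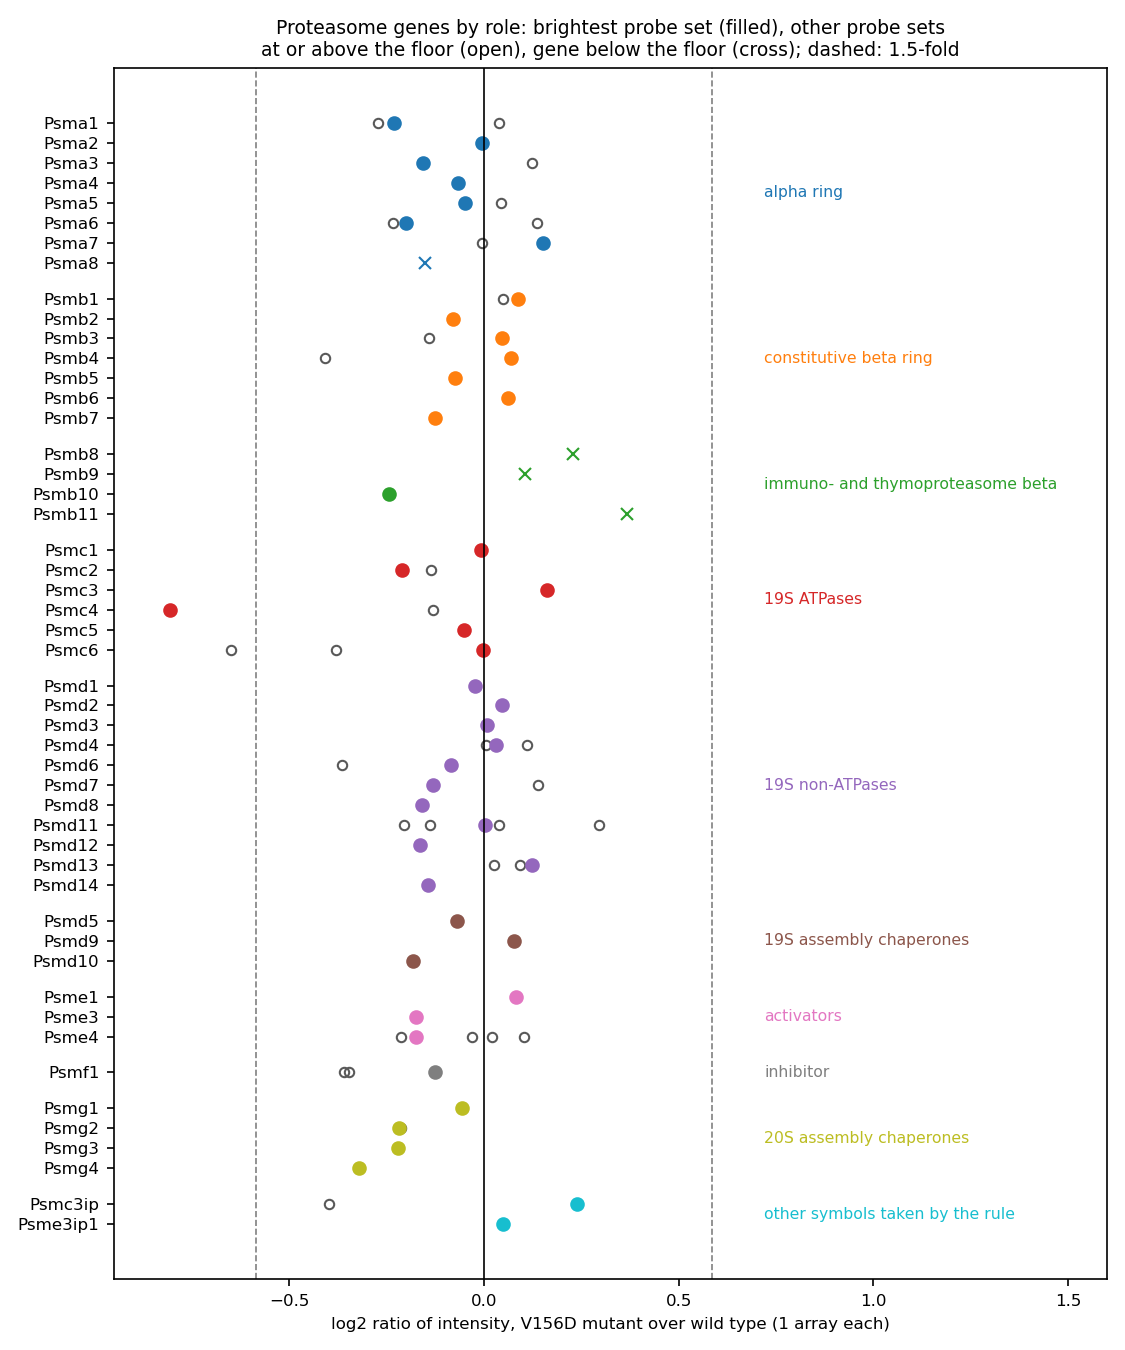
Log2 ratio of mutant over wild type (horizontal axis) for the 49 genes, grouped by role, 1 array per genotype. Filled points are the brightest probe set, open points the gene's other probe sets at or above the floor, crosses genes below the floor, and dashed lines 1.5-fold; filled points except Psmc4 lie between -0.32 and 0.24, and open points of Psmc4, Psmc6, Psmb4, Psmd11 and Psmc3ip are among those far from their filled ones.

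Of the 7 alpha ring genes above the floor 6 had ratios below 0, with a median of -0.07 and a range of -0.23 to 0.15, but 3 of 7 were below 0 after quantile normalization (median 0.02) and 4 of 7 after loess. For these and the role counts below, the share of all genes below 0 was 55.0% as deposited. It was 48.4% after quantile normalization and 49.0% after loess. Psma1 had an intensity (in deposited units) of 1169 in the wild-type array and 995 in the mutant array, a log2 ratio of -0.23. Psma6 had 1800.4 and 1568, a ratio of -0.20. Psma3 had 2671 and 2395, a ratio of -0.16. For each of these 3 genes a much dimmer probe set had the opposite sign, at 0.04 for Psma1, 0.14 for Psma6 and 0.12 for Psma3. Another dim probe set of Psma1 gave -0.27, and a second bright one of Psma6 gave -0.23. Psma4 (1651 and 1577), Psma5 (1218 and 1179) and Psma2 (1512 and 1508) were closer to 0, at -0.07, -0.05 and -0.0046. Psma7 stood on the other side with 847 and 940.2, a ratio of 0.15, but its second probe set gave -0.0057. Psma8, an alpha subunit made mainly in testis, was below the floor in both arrays, at 39.9 and 36.0.

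The constitutive beta ring genes were divided, with 4 of 7 above and 3 below 0, a median of 0.05 and a range of -0.13 to 0.09; with the probe sets averaged, 5 of 7 were below 0 and the median was -0.07. The 3 catalytic subunits did not share a direction. Psmb5, which carries the chymotrypsin-like site, had 994 in the wild-type array and 943 in the mutant array, a ratio of -0.07. Psmb6, with the caspase-like site, had 1019.6 and 1063, a ratio of 0.06, and Psmb7, with the trypsin-like site, had 182 and 167, a ratio of -0.13. Among the non-catalytic members of the ring, Psmb1 had 2053 and 2181, a ratio of 0.09, with both of its probe sets above the floor higher. Psmb2 had 1216 and 1151, a ratio of -0.08. Psmb3 and Psmb4 were given opposite directions by their probe sets. Psmb3 had 651 and 672 (0.05) with the brighter and a ratio of -0.14 with the other. Psmb4 had 2769 and 2905 (0.07) with the brighter, but 2525 and 1902 (-0.41) with a probe set almost as bright, whose name ending, _x_at, marks probes that can match other transcripts.

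The immunoproteasome subunits, which replace the constitutive catalytic subunits after interferon and are abundant in immune cells, were dim. Psmb8 had 39.4 in the wild-type array and 46.2 in the mutant array, and Psmb9 38.7 and 41.6, below the floor in both arrays. Psmb10, the counterpart of Psmb7, was above it with 117 and 98.8, a ratio of -0.24. Psmb11, which belongs to the thymus form, was listed at 14.4 and 18.6. Values below the floor carry little information on direction, so only the Psmb10 ratio enters the counts above. Leukocyte markers were dim as well: 7 of 12 lay below the floor in both arrays, while 11329 of all 18193 genes lay at or above it by mean signal. Whether the low signals of Psmb8 and Psmb9 relate to these markers was not tested. Among the 7 was Ptprc, the pan-leukocyte surface gene, at 11.1 and 10.8, and the summed intensity of the 12 was 756 and 697. The lower sum came from 1 gene, Cd74, a class II antigen presentation gene, with 212 and 139.9 (-0.60); without it the sum was 544 and 557. Of the other 4 markers that reached the floor, Laptm5 (0.20), Csf1r (0.17) and Lyz2 (0.0071) lay above 0 and Cd68 (-0.17) below. In RNA of a whole preparation, fewer cells of a type and less RNA per cell cannot be told apart.

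The 19S ATPases held the largest difference of the whole set. Psmc4, whose product is an ATPase of the cap's ring, had 1309 in the wild-type array and 749 in the mutant array with its brightest probe set (1416290_a_at), a log2 ratio of -0.81, or 1.75-fold lower. Its second probe set (1416291_at), also well above the floor, had 416 and 380.1, a ratio of -0.13. The mean of both was -0.47 ± 0.48 (SD over probe sets, not over samples), short of 1.5-fold. The direction was the same in both probe sets, but the size depended on the probe set chosen. Psmc6 showed the reverse case. Its brightest probe set had 940.5 and 939, a ratio of -0.0023, whereas 2 dimmer ones had 340.4 and 262 (-0.38) and 68.5 and 43.7 (-0.65), the last with a mutant value below the floor.

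The other ATPases lay within 1.2-fold. Psmc2 had 1288 and 1114, a ratio of -0.21, and its second probe set gave -0.13. Psmc3 was the highest of the ring at 0.16, with 870.3 and 973. Psmc5 (695 and 670.0) and Psmc1 (345 and 343) had ratios of -0.05 and -0.0081. By brightest probe sets 5 of the 6 ATPases were below 0, with a median of -0.03, but 2 of 6 were after quantile normalization or loess, with medians of 0.03 and 0.02. Their median was -0.13 with probe sets averaged and -0.09 without probe sets ending in _s_at, _x_at or _a_at. Apart from Psmc4 the brightest probe sets lay between -0.21 and 0.16.

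The 11 non-ATPase subunits of the cap were close to evenly divided, with 6 below and 5 above 0, a median of -0.02 and a range of -0.16 to 0.12; after quantile normalization or loess 5 of 11 were below 0 and the median was 0.04. The scaffold subunits Psmd1 (828 and 815) and Psmd2 (1076 and 1111) had ratios of -0.02 and 0.05. Psmd4, a ubiquitin receptor, had 711 and 727, a ratio of 0.03, with all 3 probe sets between 0.0053 and 0.11. Psmd14, the deubiquitinase that strips ubiquitin from the substrate, had 1186 and 1073, a ratio of -0.14. The lowest were Psmd12 at -0.16 (899 and 803) and Psmd8 at -0.16 (1204 and 1078), both cap subunits with 1 probe set each. Psmd7, the partner of Psmd14, had 488 and 445, a ratio of -0.13, but 0.14 by a second probe set. Psmd6 had 1396 and 1316, a ratio of -0.09, and -0.37 by a dimmer probe set. Psmd13 was highest at 0.12 (255 and 278), with its 3 probe sets above the floor all higher. Psmd3 (486 and 489) and Psmd11 (1529 and 1531) were almost equal between the arrays, although 5 probe sets of Psmd11 at or above the floor ranged from -0.20 to 0.30.

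All 4 assembly chaperones of the 20S core were lower, under each scaling tried. Of all genes at or above the floor, 48.4% to 59.4% were below 0 under these scalings. The 4 chaperones had a median of -0.22, and -0.10 with probe sets averaged. They act early, building the alpha ring, and their products work in pairs, Psmg1 with Psmg2 and Psmg3 with Psmg4. Psmg4 had 587 in the wild-type array and 469.9 in the mutant array, a ratio of -0.32, or 1.25-fold lower. Psmg3 had 235 and 201, a ratio of -0.22, and Psmg2 618 and 532, also -0.22, with -0.21 by its second probe set. Psmg1 had 348 and 334, a ratio of -0.06. The lower direction held for all 4 genes after array-median centring, quantile normalization and loess, but Psmg1 was at -0.0075 after quantile normalization. An offset cannot change a sign, and Psmg1 has 1 probe set, so probe set choice could not change its value. Below-floor probe sets of Psmg3 and Psmg4 brought their means over all probe sets to -0.08 and -0.12. For comparison, 13.1% of all genes were at least 1.2-fold lower, and among these 4 only Psmg4 was.

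The 3 assembly chaperones of the cap did not share a direction. Psmd10, known as gankyrin, which binds the Psmc4 protein while the cap is built, had 150.4 and 133, a ratio of -0.18. Psmd5 had 248 and 237, a ratio of -0.07. Psmd9 had 188 and 198, a ratio of 0.08.

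Among the alternative activators, Psme4, which encodes PA200, had 1049 and 929, a ratio of -0.18, with 3 of its 5 probe sets at or above the floor lower. Psme3, the nuclear PA28 gamma, had 171 and 152, a ratio of -0.17. Psme1, a subunit of the interferon-inducible PA28, had 340.3 and 360.2, a ratio of 0.08. Its partner Psme2 has no probe set of its own here, and a probe set shared by Psme2 and the related Psme2b, outside the 49 genes, had 719 and 656, a ratio of -0.13. The inhibitor gene Psmf1 (PI31) had 219.8 and 201, a ratio of -0.13. Its 3 probe sets at or above the floor were all lower, averaging -0.28 ± 0.13 (SD over probe sets). The dimmest of the 3 had 64.3 and 50.6, the latter below the floor. A further probe set below the floor gave 0.16, and the mean over all Psmf1 probe sets was -0.17.

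Of the 49 genes, 2 are named after the proteasome without being part of it. Psmc3ip encodes a meiotic recombination factor first found as a partner of the Psmc3 product. It had 85.6 and 101, a ratio of 0.24, and -0.40 by a second probe set, so its direction was not settled. Psme3ip1, a partner of the Psme3 product, had 310.1 and 321, a ratio of 0.05. Without these 2, 30 of 43 genes had ratios below 0 and the median was again -0.07.

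**Figure D3:**
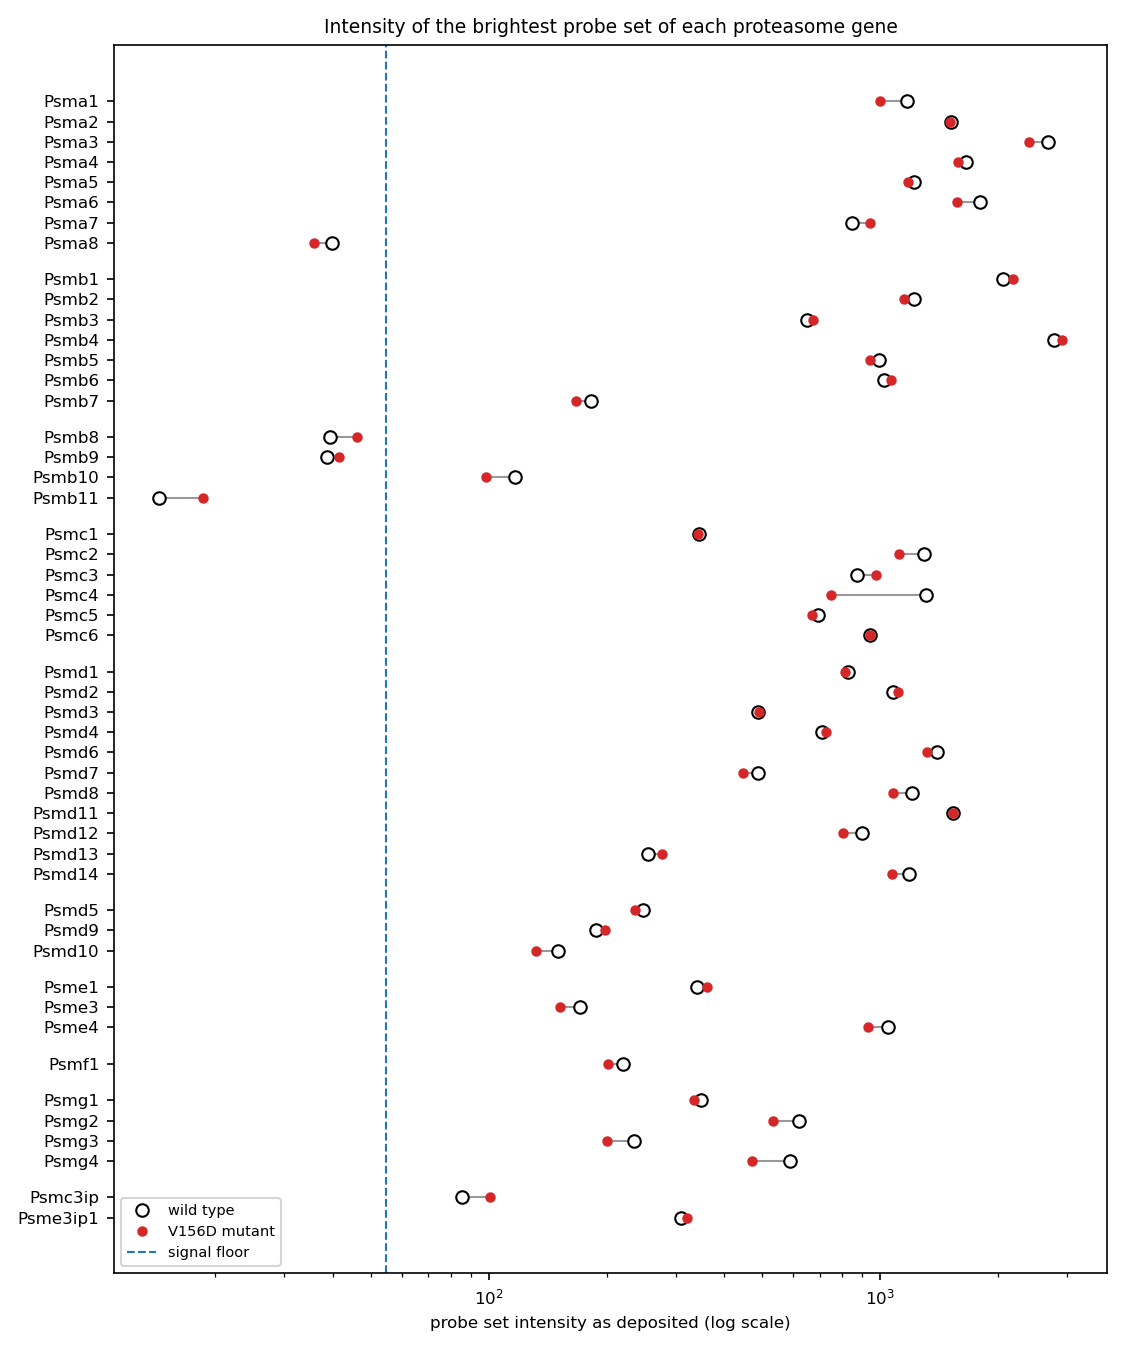
Deposited intensity (log axis) of the brightest probe set of each of the 49 genes in the wild-type (open) and mutant (filled) array, with the signal floor of 54.6 dashed. The points of a gene nearly coincide except for Psmc4 (1309 and 749), and Psma8, Psmb8, Psmb9 and Psmb11 lie below the floor; distances between genes also reflect probe design and are not compared.

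Genes that work with the proteasome lay within 1.5-fold with 1 exception, as did most of all genes. Of all genes at or above the floor, 2.02% were at least 1.5-fold lower and 1.70% at least 1.5-fold higher. Of 12 proteasome-associated genes measured, all at or above the floor, 7 were below and 5 above 0, against 55.0% of all genes below 0. The 12 had a median of -0.07, and 1 was at least 1.5-fold lower. That was Zfand2a, a proteasome-binding protein induced by arsenite and heat, with 3359 in the wild-type array and 1729.9 in the mutant array, a ratio of -0.96. Its 3 probe sets all gave -0.85 or lower. Zfand5, a related proteasome-binding protein, followed at -0.27 (4304 and 3570.2), with 4 probe sets all lower. The highest were Ube3c, a ubiquitin ligase that acts at the proteasome, at 0.25 (186 and 221), and Pomp, the maturation factor that follows the Psmg chaperones in building the core, at 0.13 (1185 and 1293). Ube3c had a probe set at -0.04 as well.

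Of the regulators of proteasome genes, Nfe2l1 itself had 1595 and 1679.8, a ratio of 0.08. Its list had 7 genes at or above the floor, 5 of them below 0 (against 55.0% of all genes), with a median of -0.09 and none at 1.5-fold. That count includes Nrf1, nuclear respiratory factor 1, which shares the abbreviation but is another gene and was highest at 0.23. Apart from Nrf1, only Nfe2l1 was above 0 among these 7. The lowest were the small Maf partners of Nfe2l1, Maff at -0.50 (4028 and 2846) and Mafk at -0.28 (798 and 656). Another small Maf gene, Mafg, had a ratio of -0.20. The 5 genes with an ARE core in the windows shown above had a median ratio of -0.0023, which is the Psmc6 value, and the 33 other genes with a promoter entry and a signal at or above the floor had -0.07. With probe sets averaged both medians were -0.07. Genes upstream of the proteasome were similar. Of 10 ubiquitin shuttle and segregase genes 7 were below 0, against 55.0% of all genes, with a median of -0.04 and none at 1.5-fold. After quantile normalization or loess 4 of 10 were below 0 (median 0.02), against 48.4% and 49.0% of all genes. Ubqln1 and Ubqln2, shuttles that carry ubiquitin-tagged proteins, were lowest at -0.34 and -0.17, and Vcp, the segregase that pulls proteins out of the endoplasmic reticulum, and Ubxn1 highest at 0.08 and 0.06. A second probe set gave 0.14 for Ubqln2 and -0.10 for Vcp, so the direction of these genes was not settled. Only Uba6 of the 6 listed ubiquitin and activating-enzyme genes had a probe set tied to it alone, with a ratio of -0.30.

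Heat shock and interferon genes, by contrast, were lower in the mutant array, and the proteasome values stand beside them. All 18 cytosolic heat shock genes that reached the floor lay below 0, against 55.0% of all genes, with a median of -0.56, and 8 of the 18 were at least 1.5-fold lower, against 2.02%. Dnaja4 and Hspb8 were lowest at -1.48 and -1.14, and Hspa1b and Hspa1a highest at -0.15 and -0.21. These are brightest probe sets, and the 3 of Hspb8 at or above the floor ranged from -1.18 to -0.16. Hspa4 and Fkbp4 each had a probe set above 0, at 0.37 and 0.18. In the other genes of this list no probe set at or above the floor was above 0. Zfand2a lay within the range of this list, while Psmc4 was the only proteasome gene beyond its median. Of 14 interferon response genes 10 reached the floor in wild type and 7 in the mutant. Of the 10, 9 were below 0, with a median of -0.35, and 3 were at least 1.5-fold lower. Over the 7 above the floor in both arrays 6 were below 0, the median was -0.21 and 2 were at least 1.5-fold lower, against the same 55.0% and 2.02%. Gbp3, an interferon-inducible GTPase, had 382 and 182, a ratio of -1.07. The related Gbp2 had 139.5 and 45.2, the latter below the floor, so that its ratio of -1.63 is not an exact size. Socs1 and Stat2 were highest at 0.10 and -0.11. The antigen processing list, whose products use the peptides the proteasome makes, was divided. Of its 8 genes at or above the floor 5 were below 0, against 55.0% of all genes, with a median of -0.07. H2-D1 and H2-K1, the class I heavy chains, were lowest at -0.56 and -0.42, and Tap1, a peptide transporter subunit, and B2m highest at 0.18 and 0.15. H2-D1 and H2-K1 belong to a family of near-identical genes, and 7 probe sets of H2-D1 ranged from -0.76 to 0.12.

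**Figure D4:**
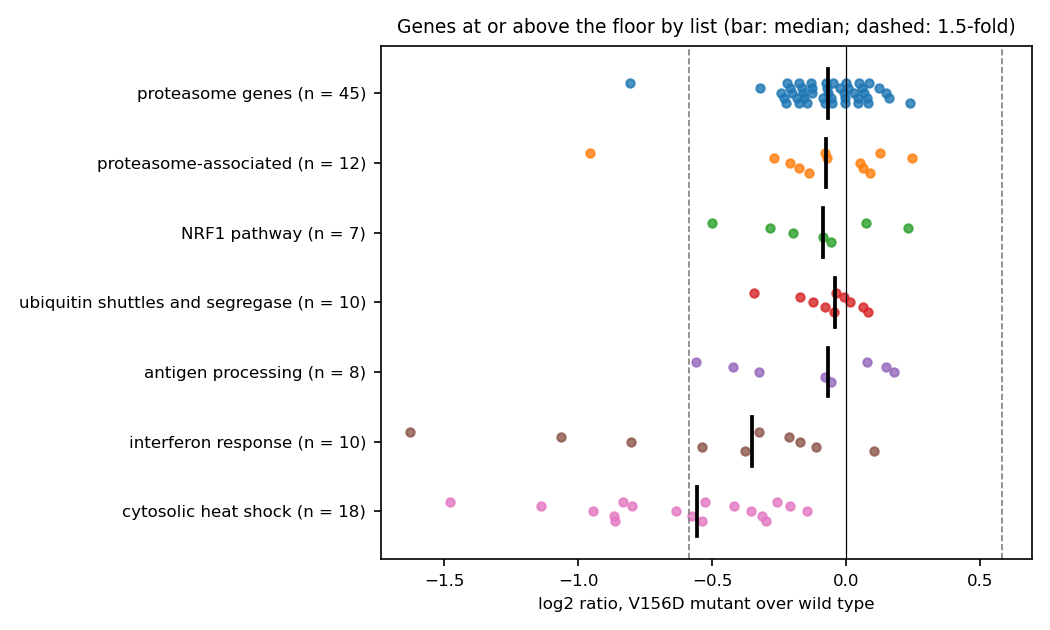
Log2 ratio of mutant over wild type for genes at or above the floor in 7 lists (points), with each list's median as a bar and 1.5-fold as dashed lines. The proteasome, proteasome-associated, NRF1 pathway, ubiquitin shuttle and antigen processing medians lie between -0.09 and -0.04, the interferon and heat shock medians at -0.35 and -0.56. The NRF1 pathway list includes Nrf1, nuclear respiratory factor 1, which is another gene.

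Marker lists of cells that a rib preparation can hold gave unequal sums for the arrays in several types. Chondrocyte markers were bright, with a summed intensity of 145728 and 147002 over 12 genes, a median ratio of 0.03 and none at 1.5-fold, and Matn1 itself had 4373 and 4340.1. Of the 12, 2 were at least 1.2-fold lower, Sox9 with 3134 and 2555 (-0.29) and Col9a2 with 4897 and 3852 (-0.35). Of the fibroblast markers 9 of 10 were above 0, against 44.8% of all genes at or above the floor, and 6 at least 1.5-fold higher, against 1.70%. Their summed intensity was 39856 and 67097. Of 9 endothelial markers, 4 reached the signal floor for wild type and 7 for the mutant, with a summed intensity of 586 and 839. Among 8 skeletal muscle markers, the 4 at or above the floor were all lower, against 55.0% of all genes, but the median ratio over all 8 was -0.01. The sum of the 8 was 2500.3 and 1856. Of the 4 at or above the floor, Ckm was almost equal at 65.0 and 64.2 (-0.02), and Tnnt3, at 1930 and 1388, made up most of the sum. The sum of 4 erythroid markers was 174 and 189, and only Alas2, with 75.4 and 93.4, reached the floor. The part of these cells, and of the heat shock difference, in the proteasome values was not tested.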

How the data were processed

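Probe set intensities on a linear scale, as deposited by the authors, were used for 45037 probe sets on 2 arrays. The submitters' processing notes name MAS5, with no version. How the arrays were scaled and background was handled is not stated in the labels or notes used here. The values do not settle the method either: log2 of 100.0% of the deposited intensities fell on 5 decimals (within 0.05 of the last), as a summary made on that scale would give, and the SD of the log2 ratio was lowest, 0.19, in the dimmest of 10 groups of genes ordered by signal. Fold sizes and the floor therefore rest on an unknown background treatment. Of these probe sets 34945 had 1 symbol in the platform annotation, 932 several and 9160 none, and only the first entered. Of the 34945, 34741 were found by Entrez identifier in the RefSeq gene table, and 0 changed name. The log2 of each deposited intensity was taken without further normalization, and each gene was represented by its brightest probe set over both arrays. The floor was the 50th percentile of mean log2 signal, 5.77. With 1 array per genotype no test was run, and the number of arrays limits the precision. The 49 genes, the gene lists and the thresholds of 1.2-fold, 1.5-fold and 2-fold were chosen with earlier results of these data known. All 49 genes were named, and of each pathway list the 2 highest and 2 lowest at or above the floor. Other genes (Matn1, Psme2, Mafg, Hspa4, Fkbp4, Ptprc and the further marker genes named) were picked with their values in view. Alternatives were array-median centring, quantile normalization, loess (span 0.3), an offset of 32, no floor or floors at the 40th, 60th and 80th percentile, a gene's mean over its probe sets, leaving out probe sets ending in _s_at, _x_at or _a_at, and leaving out Psmc3ip and Psme3ip1. Promoters came from RefSeq's table. The steps were tested on simulated data. Python 3.11.15, numpy 2.4.6, pandas 2.3.3, statsmodels 0.14.6, scipy 1.17.1 and matplotlib 3.10.9 were used.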

Additional observations from a re-analysis of the deposited data

How the results depend on the processing

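No paired analysis was possible because each genotype has 1 array. The median log2 ratio of the proteasome genes at or above the floor was below 0 under each of the 11 alternatives, from -0.09 to -0.0007, the latter after quantile normalization, where 23 of 45 ratios were below 0. The count of genes at least 1.5-fold lower, 1 (Psmc4), was 0 after averaging over all probe sets. It was 2 at a threshold of 1.2-fold and 0 at 2-fold. Without probe sets ending in _s_at, _x_at or _a_at the gene past 1.5-fold was no longer Psmc4, at -0.13, but Psmc6, at -0.65. That Psmc6 value came from a dim probe set with 68.5 in the wild-type array and 43.7 in the mutant array, the latter below the floor. The median of the constitutive beta ring was 0.11 after quantile normalization and also 0.11 after loess. The median of the activators, -0.17, was -0.19 with each array centred on its median, -0.11 after quantile normalization or loess and -0.05 with the floor at the 80th percentile, where 2 of the 3 genes remain. The median of the immuno- and thymoproteasome subunits, -0.24 from Psmb10 alone, was 0.17 with no floor and 0.10 with the floor at the 40th percentile, since dim genes enter. Of the 45 genes at or above the floor, 31 had 1 sign under each of the 5 or 6 alternatives of scaling, offset and probe set choice that gave a value, 22 lower and 9 higher. The offset cannot change a sign, and probe set choice cannot change it for a gene with 1 probe set in all. Part of this stability was therefore fixed in advance. Of the 45 genes 25 had 1 probe set at or above the floor, but some of these had further ones below it. Averaging could move those genes, as for Psmc1 from -0.0081 to 0.08. The same count was not made over all genes, so the split is no measure of a lean. Signal over background limits Psma8, Psmb8, Psmb9 and Psmb11, which have no usable direction.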
